A study of Mus musculus with 38 samples.

Results

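Mitochondrial ribosomal protein genes were taken here as the protein-coding mouse genes whose symbol starts with Mrpl (large subunit) or Mrps (small subunit) followed by a number. Of the 48709 genes counted, 78 met this rule, 49 with an Mrpl and 29 with an Mrps symbol. Another 5 genes with such symbols were processed pseudogenes and were left out. The low-count filter kept 77 members in every comparison, and Mrpl53 was kept in none, with between 0 and 7 reads per library.

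Mitochondria carry their own ribosome, the mitoribosome, which makes the few proteins encoded by mitochondrial DNA, all of them subunits of the respiratory chain and ATP synthase. Its RNAs come from the mitochondrial genome, whereas its proteins are encoded in the nucleus, made in the cytosol and imported, so the nuclear and mitochondrial genomes have to be expressed together. Part of its proteins descend from those of the bacterial ribosome and part were added in mitochondrial evolution. In neurons the proteins made on mitoribosomes are needed for the ATP that synaptic transmission consumes.

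The hippocampus of 38 C57BL/6 mice was examined by mRNA sequencing, 1 library per mouse, in 8 groups that combined 2 genotypes, 2 diets and 2 ages. APPPS1ΔE9 mice carry transgenes for mutant human APP and for presenilin 1 lacking an exon, both driven by the mouse prion promoter, and develop amyloid plaques, and the question put to the data was how genotype, age and the oligomer modulator anle138b changed hippocampal gene expression. The 6-month cohort (pre-plaque group) held 4 wild-type mice on placebo chow, 4 wild-type mice on anle138b chow, 4 placebo-treated APPPS1ΔE9 mice and 4 anle138b-treated APPPS1ΔE9 mice. The 10-month cohort (post-plaque group) held 5 wild-type mice on placebo, 5 wild-type mice on anle138b, 5 placebo-treated APPPS1ΔE9 mice and 7 anle138b-treated APPPS1ΔE9 mice. The titles of the 4 libraries of 6-month wild-type mice on placebo say wild type while their genotype field names the transgene, and they were grouped by title. App, the transgene's mouse counterpart, ranged from 1522 to 1799 CPM (counts scaled to library size) in the 18 mice grouped as wild-type and from 3274 to 4286 CPM in the 20 APPPS1ΔE9 mice, without overlap, these 4 included.

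Libraries held between 15847985 and 31895808 counts in genes, and the members together took 0.170% to 0.214% of them. Several properties differed between groups. The titles number the libraries of the cohorts separately but name no run, so age could not be told apart from a possible separate sequencing of the cohorts. Sequencing lane was nearly inseparable from group. The mice are described as male, yet 12 of the 38 libraries had no more than 20 CPM of Y-linked transcripts: 11 of the 18 wild-type mice and 1 of the 20 APPPS1ΔE9 mice. The summed markers of the choroid plexus (Ttr, Kl, Folr1, Kcnj13), a tissue that borders the hippocampus, exceeded 1000 CPM in 10 of the 16 6-month libraries and in 1 of the 22 10-month libraries. Neuronal markers (Snap25, Rbfox3) were abundant in every library, and in bulk tissue fewer cells of a type and less RNA per cell cannot be told apart.

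Promoters of 69 members were found in the RefSeq table (build GRCm38.p6), each spanning 250 bases before to 50 bases after a transcription start. Words bound by factors known to act on nuclear genes for mitochondrial proteins were searched on both strands in 32851 promoters. The NRF1 word, GCGC followed by any base and TGCGC, occurred in 13 members (18.8%, against 7.47% of 16430 coding genes and 4.6% of all promoters). The word CCGGAAG of ETS factors such as GABPA occurred in 26 (37.7%, against 13.4% of coding genes and 8.86% of promoters) and the word AAGATGG of YY1 in 13 (18.8%, against 7.28% and 6.34%). At least 1 of these 3 words, which may overlap, was present in 43 members (62.3%), against 24.8% of coding genes and 18% of all promoters. The 5 promoters printed here were picked from named members with a match, using the promoter with the most matches, and capitals mark the matches. They do not stand for all leading members. The promoter of Mrpl20, which had the smallest adjusted p between the ages, held 0 matches, as did a second promoter of Mrps16. Mrpl45 (chr11:97315466-97315765, plus strand) holds 3 NRF1 words and Mrpl12 (chr11:120484387-120484686, plus strand) holds 1. Mrpl49 (chr19:6057706-6058005, minus strand) holds 2 YY1 words, Mrps16 (chr14:20393441-20393740, minus strand) 2 ETS words, and Mrpl3 (chr9:105053018-105053317, plus strand) 1 ETS word.
Mrpl45: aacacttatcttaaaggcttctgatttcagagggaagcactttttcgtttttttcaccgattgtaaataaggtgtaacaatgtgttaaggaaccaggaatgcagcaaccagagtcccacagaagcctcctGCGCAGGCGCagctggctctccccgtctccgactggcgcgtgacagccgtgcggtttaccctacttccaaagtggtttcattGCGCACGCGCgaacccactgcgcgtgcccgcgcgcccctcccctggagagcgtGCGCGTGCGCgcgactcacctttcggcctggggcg
Mrpl12: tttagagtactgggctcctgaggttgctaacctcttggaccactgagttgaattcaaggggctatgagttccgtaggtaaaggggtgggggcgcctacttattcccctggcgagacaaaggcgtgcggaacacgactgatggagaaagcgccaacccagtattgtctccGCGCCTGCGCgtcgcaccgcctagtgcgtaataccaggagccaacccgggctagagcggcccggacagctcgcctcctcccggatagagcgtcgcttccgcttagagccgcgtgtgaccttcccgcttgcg
Mrpl49: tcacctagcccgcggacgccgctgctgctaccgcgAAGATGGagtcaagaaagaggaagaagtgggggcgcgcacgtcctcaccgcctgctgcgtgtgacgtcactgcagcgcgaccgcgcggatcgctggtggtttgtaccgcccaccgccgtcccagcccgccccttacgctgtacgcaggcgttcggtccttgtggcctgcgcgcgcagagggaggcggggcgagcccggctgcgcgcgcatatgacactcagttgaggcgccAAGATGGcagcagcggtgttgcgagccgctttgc
Mrps16: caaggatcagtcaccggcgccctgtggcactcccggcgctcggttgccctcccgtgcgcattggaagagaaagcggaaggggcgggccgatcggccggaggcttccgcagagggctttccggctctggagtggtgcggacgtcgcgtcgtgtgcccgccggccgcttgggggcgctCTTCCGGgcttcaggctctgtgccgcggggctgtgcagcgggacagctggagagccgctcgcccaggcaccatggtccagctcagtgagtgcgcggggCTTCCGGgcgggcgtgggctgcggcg
Mrpl3: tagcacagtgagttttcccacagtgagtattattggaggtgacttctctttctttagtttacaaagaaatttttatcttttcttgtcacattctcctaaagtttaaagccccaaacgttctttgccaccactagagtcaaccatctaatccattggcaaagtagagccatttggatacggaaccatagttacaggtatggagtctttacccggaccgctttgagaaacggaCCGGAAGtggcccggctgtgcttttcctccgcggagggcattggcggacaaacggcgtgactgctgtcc

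Members were expressed at moderate to high level. Their median was 10.1 RPKM (CPM per kilobase of exon), against 3.55 for all genes tested, and 67 of 77 lay above the median gene, 34 of them above the upper quartile. Per length the highest were Mrpl41 at 41.6 ± 4.33 RPKM (SD, n = 38), Mrps21 at 29.6 ± 3.74 and Mrpl10 at 26.1 ± 1.68, proteins of the large, small and large subunit. The lowest were Mrps34 at 1.28 RPKM, Mrpl23 at 0.727 and Mrpl53 at 0.0996. Reads lying wholly in bases shared by 2 genes are not assigned by the counting mode used (unless it used strand and the genes lie on opposite strands), and exon sharing was large for 3 members: 88.0% of the exon bases of Mrpl53, 77.8% of Mrps34 and 69.8% of Mrps25 lay in exons of another gene, so their counts are uncertain. Mrpl53 (chr6:83109040-83109939, plus strand) overlaps Gm42688 and Ccdc142os, and Mrps34 (chr17:24895116-24897502, plus strand) overlaps Mapk8ip3 and Nme3.

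The mean level of the 77 members separated the cohorts more than any other factor. On the scale of mean log2 CPM it was 4.56 ± 0.04 (SD) in 6-month wild-type mice on placebo, 4.53 ± 0.03 on anle138b, 4.46 ± 0.07 in placebo-treated and 4.55 ± 0.03 in anle138b-treated APPPS1ΔE9 mice, with 4 mice each. At 10 months it was 4.33 ± 0.04, 4.37 ± 0.06, 4.38 ± 0.06 (5 mice each) and 4.33 ± 0.07 (7 mice) in the same order. All 22 older mice lay between 4.22 and 4.45, and all but 1 of the 16 younger mice lay above them. The exception was the second placebo-treated APPPS1ΔE9 mouse at 4.36.

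**Figure D1:**
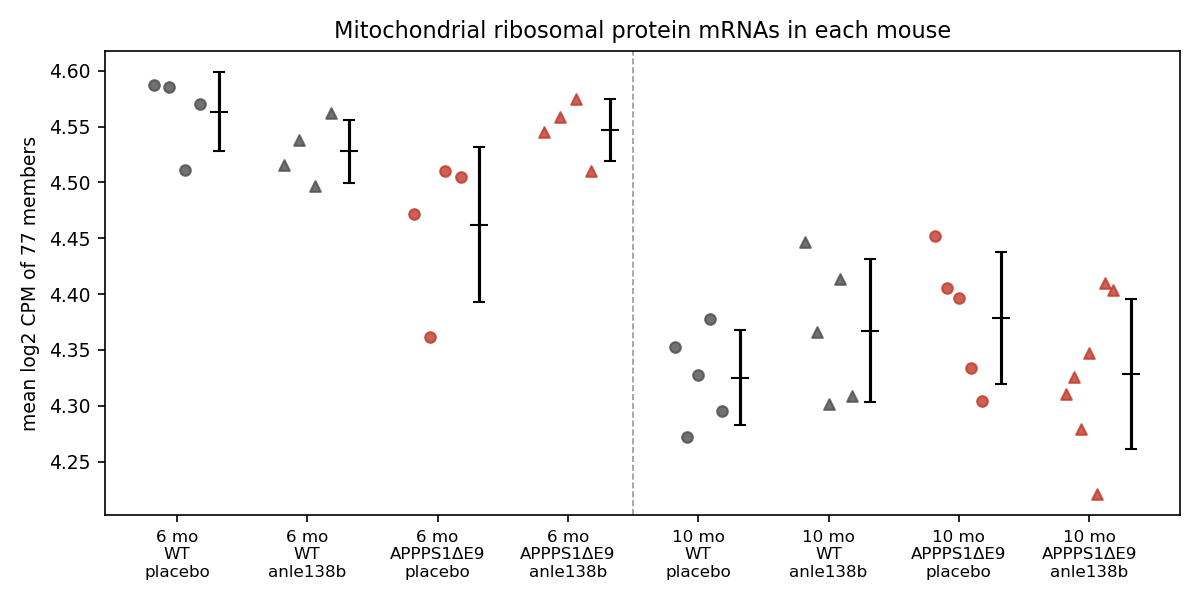
Mean log2 CPM of the 77 members (vertical axis) in each of the 38 mice by group (horizontal axis; circles placebo, triangles anle138b, grey wild-type, red APPPS1ΔE9; bars are mean ± SD). The 10-month mice span 4.22 to 4.45, and 1 of 16 6-month mice, at 4.36, falls within that span.

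Which members differed between the ages was asked with 1 fit over all 8 groups, weighting the 4 pairs of groups that differ only in age equally. In the 10-month hippocampus 61 of the 77 members were lower and 5 higher (edgeR quasi-likelihood test, Benjamini-Hochberg adjusted p under 0.1), against 61.8% of all genes called in either direction, 32.1% lower and 29.7% higher. The median log2 fold change of members was -0.18, against -0.02 for all genes, and 70 members had a value below 0, against 52.4% of all genes. So the share of members called was 66 of 77, above a background in which most genes were called, and the calls were mostly in 1 direction. Both subunits took part, with 41 of 48 Mrpl and 20 of 29 Mrps members lower. Large-subunit proteins with a bacterial counterpart were lower in 25 of 30 cases and those specific to mitochondria in 17 of 20, and the small-subunit classes in 12 of 16 and 7 of 10.

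Mrpl45, which anchors the mitoribosome to the inner membrane near the exit of the nascent chain, was the member with no overlap between the ages. It ranged from 27.3 to 31.2 CPM (median 29.9) in 22 10-month mice and from 31.5 to 37.9 CPM (median 34.8) in 16 6-month mice, a log2 fold change of -0.23 ± 0.02 (SE, adjusted p = 9.59e-10). Among all genes 1.73% had cohorts without overlap, 0.176% with the older mice lower.

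Mrpl12, the stalk protein that contacts translation factors, ranged from 20.5 to 27.7 CPM (median 23.4) at 10 months and from 26.3 to 32.9 CPM (median 30.4) at 6 months. Its log2 fold change was -0.31 ± 0.03 (SE, adjusted p = 2.71e-09), a level 19.1% lower. The overlap was made by 3 younger mice, 2 placebo-treated APPPS1ΔE9 mice at 26.3 and 26.6 CPM and an anle138b-treated wild-type mouse at 26.7 CPM. Mrpl20, whose bacterial counterpart binds ribosomal RNA early in assembly, had the smallest adjusted p of all members. It ranged from 32.7 to 39.7 CPM (median 36.7) in the older and from 36.5 to 50.7 CPM (median 46.0) in the younger mice, a log2 fold change of -0.30 ± 0.03 (SE, adjusted p = 1.21e-10). Only the lowest younger mouse, a placebo-treated APPPS1ΔE9 mouse, fell within the older range.

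The other large-subunit members with the smallest adjusted p were Mrpl49 (log2 fold change -0.24), Mrpl42 (-0.36), Mrpl13 (-0.29), Mrpl58 (-0.19) and Mrpl14 (-0.36). Mrpl58 is unusual among them, since it descends from a peptide release factor and can free stalled chains as a peptidyl-tRNA hydrolase. It ranged from 29.2 to 33.9 CPM in the older mice and from 31.3 to 38.9 CPM in the younger mice, with medians of 31.5 and 36.2 CPM.

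In the small subunit, Mrps16 ranged from 12.2 to 15.7 CPM (median 14.1) at 10 months and from 14.5 to 19.2 CPM (median 17.2) at 6 months, a log2 fold change of -0.28 ± 0.03 (SE, adjusted p = 1.98e-09). Mrps24 had the most negative log2 fold change of all members, -0.43 ± 0.05 (SE, adjusted p = 3.65e-09). It ranged from 14.1 to 22.8 CPM (median 18.6) in the younger and from 10.2 to 16.1 CPM (median 13.6) in the older mice. Both sets of values overlapped at their edges. Mrps11 (-0.28) and Mrps25 (-0.29), the latter with most of its exon bases shared with Nr2c2 on the other strand, completed the 12 members with the smallest adjusted p. Mrps6 followed Mrps24 in size at -0.42 ± 0.08 (SE), and 19.9% of its exon bases were shared with Gm49711 or Slc5a3.

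Members with a known special role gave a range of values. Mrps12, the protein of the decoding centre, had a log2 fold change of -0.25 ± 0.06 (SE, adjusted p = 0.00119), Mrpl44, which has a ribonuclease-like fold, -0.20 ± 0.03 (adjusted p = 1.22e-06) and Mrps22, specific to mitochondria, -0.21 ± 0.05 (adjusted p = 0.000206). The 3 paralogues of bacterial S18 differed in size. Mrps18c and Mrps18b, both small-subunit proteins, gave -0.25 ± 0.05 (adjusted p = 2.66e-05) and 0.03 ± 0.05 (adjusted p = 0.626). Mrps18a, found in the large subunit, gave -0.09 ± 0.03 (adjusted p = 0.00752). Mrps30, also a large-subunit protein despite its symbol, gave -0.08 ± 0.04 (adjusted p = 0.109). Mrps36, now placed in the oxoglutarate dehydrogenase complex and not in the ribosome, gave -0.14 ± 0.07 (adjusted p = 0.116) at 1.87 to 3.56 CPM.

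The 5 members that rose with age were Mrps10, Mrpl37, Mrps9, Mrpl23 and Mrpl24. Mrps10, a small-subunit protein with a bacterial counterpart, ranged from 14.9 to 21.3 CPM (median 18.8) in the older and from 12.9 to 17.7 CPM (median 15) in the younger mice, a log2 fold change of 0.30 ± 0.04 (SE, adjusted p = 1.91e-07). Mrpl37 ranged from 41 to 53.5 CPM against 38.6 to 44.7 CPM, or 0.14 ± 0.03 (adjusted p = 0.000201). The values of both overlapped between the ages. The other 3 had log2 fold changes of 0.14 (Mrps9), 0.22 (Mrpl23) and 0.07 (Mrpl24). The 11 members that did not pass the test were Mrps30, Mrps36, Mrpl3, Mrps5, Mrps34, Mrpl38, Mrps17, Mrpl1, Mrps18b, Mrpl4 and Mrps27.

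**Figure D2:**
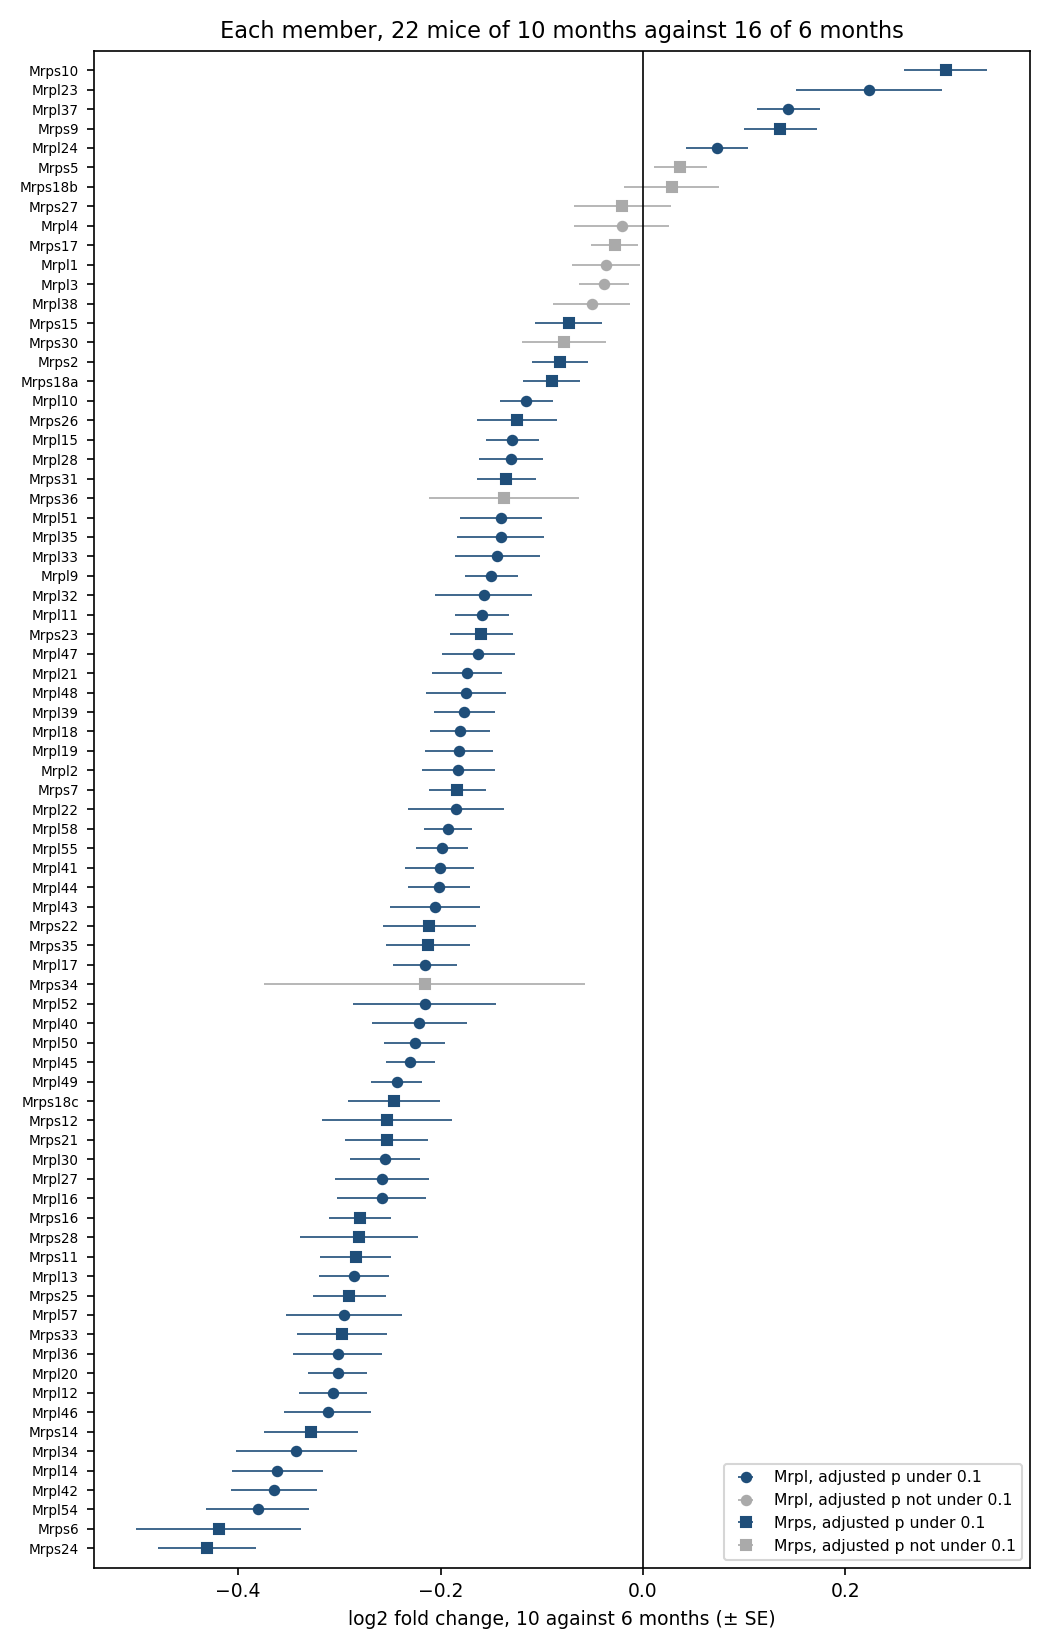
Log2 fold change of each of the 77 members (rows, ordered by size) in 22 mice of 10 months against 16 mice of 6 months, with SE as bars (circles Mrpl, squares Mrps, blue where the adjusted p was under 0.1, grey otherwise). Values run from -0.43 for Mrps24 to 0.30 for Mrps10, and 70 members lie left of 0.

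The choroid plexus markers differed between the cohorts, ranging from 31.6 to 4278 CPM in the older mice and from 59.3 to 7780 CPM in the younger mice. Without the 11 libraries over 1000 CPM, 53 members were lower and 3 higher, against 17.4% and 22.2% of all genes in that fit, with a median of -0.19. With the marker class as a covariate 62 were lower and 4 higher, against 22.6% and 24.6% of all genes, with a median of -0.21. Among 6-month mice the member mean was 4.36 to 4.57 (median 4.51) in the 6 libraries below that level and 4.47 to 4.59 (median 4.54) in the 10 above it. Members also had shorter exons than other genes (median 2533 against 3927 bases), and with offsets for length and GC content 59 were lower (31.4% of all genes) and the median was -0.16.

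Genes that work with the mitoribosome moved partly in both directions between the ages. Of 5 mitoribosomal proteins with other symbols, 4 were lower and 0 higher, against 32.1% and 29.7% of all genes. Among the 4 were Aurkaip1 (-0.34 ± 0.03 SE), Chchd1 (-0.25 ± 0.03) and Dap3 (-0.12 ± 0.02), and the list's median was -0.25. Of 23 assembly and ribosomal RNA factors 12 were lower and 4 higher, against 32.1% and 29.7% of all genes, with a median of -0.09 against -0.02. Mrm2, which methylates the large ribosomal RNA, gave -0.35, Tfb1m, which methylates the small one, -0.29, and Malsu1, an assembly factor of the large subunit, -0.26. In the other direction Mettl17, a small-subunit assembly factor, rose by 0.56.

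Of 15 translation factors 5 were higher and 6 lower, shares near those of all genes (29.7% and 32.1%): Gfm2 (0.45), which recycles ribosomes, and Mtfmt (0.41), which formylates the initiator tRNA, rose, while Mrrf (-0.27), the recycling factor, and Slirp (-0.26), which stabilises mitochondrial mRNAs, fell. Of 22 aminoacyl-tRNA synthetases 8 were higher and 8 lower, also near the shares of all genes. Of 14 regulators of transcription 5 were higher and 4 lower, also near the shares of all genes, with a median of -0.003. Nrf1 (0.27) and Gabpb1 (0.22) were among the higher ones and Tfam (-0.14) and Tefm (-0.26) among the lower ones. Mterf1b and Ppargc1b were called as well. Of the 13 mitochondrially encoded mRNAs 7 were tested, and the rest did not pass the low-count filter. Of those tested 5 were lower and 0 higher, against 32.1% and 29.7% of all genes, with a median of -0.13. No gene of these lists was called in any of the other 13 comparisons.

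Whether the transgene changed these genes before plaques was asked in placebo-treated mice at 6 months. No member was called (edgeR), against 0.0715% of all genes, and DESeq2 called 0. At an unadjusted p under 0.05, 14 members were lower and 0 higher in APPPS1ΔE9 mice, against 5.86% and 5.22% of all genes. The 14 became 0 with an indicator of Y-linked transcripts as a covariate and 8 with offsets for length and GC content. With that covariate the contrast sets the 4 APPPS1ΔE9 mice against 1 wild-type mouse. Leaving out each mouse in turn gave 8, without the second APPPS1ΔE9 mouse, to 18. The median log2 fold change was -0.10, against 0.00 for all genes, and 70 of 77 members lay below 0, against 49.2% of all genes. The member means of the APPPS1ΔE9 mice were 4.47, 4.36, 4.51 and 4.51, and those of the wild-type mice 4.59, 4.58, 4.51 and 4.57. The groups did not overlap, although their nearest mice were equal at 2 decimals.

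The members with the smallest p were large-subunit proteins. Mrpl41 was 32.9, 35.8, 36.9 and 39.1 CPM in placebo-treated APPPS1ΔE9 mice and 42.0, 45.4, 39.2 and 43.3 CPM in wild-type mice, a log2 fold change of -0.23 ± 0.07 (SE, adjusted p = 0.349). Mrpl20 was 40.3, 36.5, 42.6 and 42.8 CPM against 48.7, 48.0, 43.3 and 48.8 CPM, or -0.22 ± 0.07 (adjusted p = 0.36). In both genes all transgenic mice were below all wild-type mice. The same held for Mrpl42 (-0.28), Mrpl50 (-0.20), Mrpl48 (-0.22), Mrps16 (-0.24), Mrps25 (-0.19) and Mrps28 (-0.27), so that 8 of 77 members had groups without overlap, against 6.07% of all genes. Mrpl37 and Mrpl38 had the smallest p among the members above 0, at 0.05 ± 0.06 and 0.03 ± 0.06 (SE).

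Other quantities moved with this difference. The 4 APPPS1ΔE9 mice all had Y-linked transcripts whereas 3 of the 4 wild-type mice did not. With that indicator as a covariate the median was -0.035 and 56 members lay below 0. That contrast compares the 4 APPPS1ΔE9 mice with 1 wild-type mouse, the third, whose member mean of 4.51 was the lowest of the wild-type mice. Genotype and the indicator were thus nearly inseparable here. With offsets for length and GC content the median was -0.06. Without the second APPPS1ΔE9 mouse it was -0.07, with 62 members below 0, and leaving out each mouse in turn gave -0.12 to -0.07. Choroid plexus markers exceeded 1000 CPM in 1 of the 4 APPPS1ΔE9 and 3 of the 4 wild-type libraries, and with these libraries left out, 3 mice against 1, the median was -0.14. Mitochondrially encoded mRNAs were 3.10% to 3.82% of counts in APPPS1ΔE9 and 4.08% to 4.48% in wild-type mice, and all 7 that were tested were lower at an unadjusted p under 0.05, with a median of -0.22. Except where such values are given, the part of sex, lane and tissue dissection in the result was not tested.

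At 10 months the same comparison of placebo-treated mice gave values on the other side of 0. No member was called (edgeR, against 0.324% of all genes, and DESeq2 called 0), and at an unadjusted p under 0.05, 2 were higher and 0 lower, against 2.59% and 1.51% of all genes. The 2 became 7 with the Y-linked covariate and 0 to 8 when each mouse was left out. The median was 0.05, against 0.00 for all genes, and 59 of 77 members lay above 0, against 49% of all genes. Mrpl12 was 27.3, 27.6, 26.1, 24.7 and 22.8 CPM in APPPS1ΔE9 and 22.9, 22.7, 23.8, 23.2 and 22.4 CPM in wild-type mice, a log2 fold change of 0.16 ± 0.06 (SE, adjusted p = 1). In it 4 of 5 transgenic mice lay above every wild-type mouse. Mrpl21 gave 0.16 ± 0.07, while Mrps10 (-0.08 ± 0.06) and Mrpl39 (-0.07 ± 0.05) had the smallest p among the members below 0.

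These comparisons share no mice. Side by side, 54 of 77 members (70.1%) were lower in APPPS1ΔE9 mice at 6 months and higher at 10 months, against 23.5% of all genes. Another 16 were lower and 5 higher at both ages, and 2 were higher and then lower. With 70 members below 0 at 6 months and 59 above 0 at 10 months, a share of this size follows from the 2 shifts. It is not a separate result. In the test of the difference between the ages no member was called (edgeR, against 0% of all genes, and DESeq2 called 0). At an unadjusted p under 0.05, 16 members had a positive difference and 0 a negative one, against 3.4% and 2.75% of all genes. The median difference was 0.13, against -0.01 for all genes, and 69 members were above 0, against 48.6%. The 16 became 9 without the second placebo-treated 6-month APPPS1ΔE9 mouse. All 7 mitochondrially encoded mRNAs tested also had positive differences, with a median of 0.22. Mrps16 (0.34 ± 0.09 SE), Mrpl20 (0.30 ± 0.08) and Mrpl12 (0.31 ± 0.09) had the smallest p, each with an adjusted p of 0.635.

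**Figure D3:**
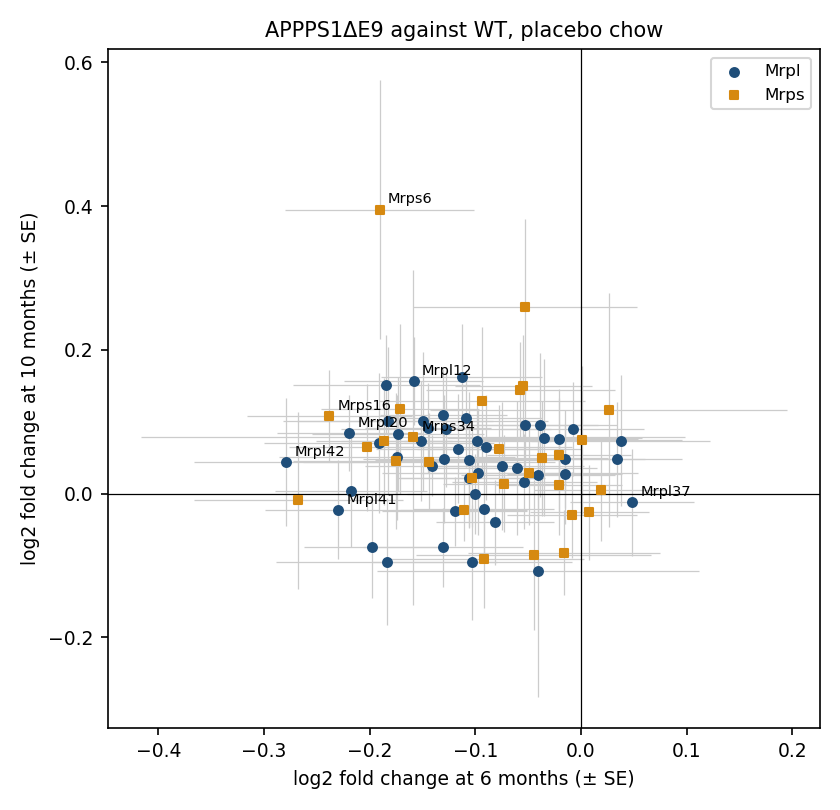
Log2 fold change of APPPS1ΔE9 against wild-type mice on placebo at 6 months (horizontal) and at 10 months (vertical) for each of 77 members, with SE as grey bars (circles Mrpl, squares Mrps). The upper left quadrant, lower at 6 and higher at 10 months, holds 54 members.

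With both genotypes on anle138b, the 6-month comparison was centred near 0. No member was called (edgeR, against 0.047% of all genes, and DESeq2 called 0), 6 were higher and 1 lower at an unadjusted p under 0.05 (against 4.02% and 1.63% of all genes; 2 to 9 higher when each mouse was left out, the lowest without the first and the highest without the fourth APPPS1ΔE9 mouse), and the median was 0.01, against 0.00 for all genes, with 46 members above 0 (48.2% of all genes). Mrpl3, a protein close to the peptidyl transferase centre, was the lower one, with 65.6, 66.5, 69.0 and 72.3 CPM in APPPS1ΔE9 and 72.8, 77.5, 77.6 and 77.6 CPM in wild-type mice. Its groups did not overlap, as in 3.33% of all genes, and the log2 fold change was -0.16 ± 0.05 (SE, adjusted p = 0.797). Mrpl36 was 22.3, 21.5, 21.3 and 19 CPM against 17.4, 18.5, 17.4 and 19.3 CPM, or 0.21 ± 0.07 (adjusted p = 0.824), with 1 transgenic mouse inside the wild-type range. Mrpl34 gave 0.33 ± 0.11 and Mrps18b -0.16 ± 0.09 (SE).

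In APPPS1ΔE9 mice at 6 months, anle138b against placebo gave no called member (edgeR, against 0.0529% of all genes, and DESeq2 called 0). At an unadjusted p under 0.05, 9 members were higher and 0 lower, against 5.5% and 7.63% of all genes, and 66 of 77 lay above 0, against 49.4%. The 9 became 2 without the second placebo-treated mouse and with length and GC offsets, and 16 with all 4 groups in 1 fit. The median was 0.08 against 0.00, and leaving out each mouse gave 0.06 to 0.11. The 7 mitochondrially encoded mRNAs tested were all higher on anle138b, 3 at an unadjusted p under 0.05, with a median of 0.22, and their part in the result was not tested. Mrps14, a small-subunit protein next to the decoding region, was 37.2, 39.1, 40.4 and 39 CPM on anle138b and 36.6, 30.5, 34.8 and 34.7 CPM on placebo, a log2 fold change of 0.19 ± 0.06 (SE, adjusted p = 0.323), without overlap, as in 6.14% of all genes. Mrpl20 was 46.3, 42.5, 47.5 and 50.7 CPM against 40.3, 36.5, 42.6 and 42.8 CPM, or 0.21 ± 0.07 (adjusted p = 0.323). Here 1 anle138b-treated mouse fell among the placebo-treated mice. The placebo-treated transgenic mice are shared with the genotype comparison, so the values of opposite sign in these comparisons are not independent. Choroid plexus markers exceeded 1000 CPM in 3 of 4 anle138b libraries and 1 of 4 placebo libraries, and without these, 1 mouse against 3, the median was 0.05 with 22 members below 0.

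In wild-type mice at 6 months no member was called for anle138b (edgeR, against 0% of all genes, and DESeq2 called 0), 3 were lower and 0 higher at an unadjusted p under 0.05 (against 1.15% and 0.698% of all genes; 1 to 5 lower when each mouse was left out), and the median was -0.03, with 50 members below 0 (against 49.5% of all genes). Mrpl36 was 17.4, 18.5, 17.4 and 19.3 CPM on anle138b and 22.6, 22, 19.6 and 21.1 CPM on placebo, a log2 fold change of -0.23 ± 0.07 (SE, adjusted p = 1). Its groups did not overlap, as in 1.5% of all genes. Mrpl34 gave -0.25 ± 0.11, and Mrps18b (0.22 ± 0.10) and Mrpl2 (0.09 ± 0.07) had the smallest p among the members above 0.

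The test of whether anle138b acted differently in the genotypes at 6 months called no member (edgeR, against 0% of all genes, and DESeq2 called 0). At an unadjusted p under 0.05, 11 members had a positive and 0 a negative difference, against 4.59% and 3.4% of all genes, with a median of 0.13, with 66 members above and 11 below 0, against 49.6% and 50.4% of all genes. The 11 became 7 without the second placebo-treated APPPS1ΔE9 mouse. All 7 mitochondrially encoded mRNAs tested also had positive differences, with a median of 0.23. Mrpl36 had the smallest p, at 0.40 ± 0.11 (SE, adjusted p = 0.533), followed by Mrpl34 at 0.50 ± 0.16. Without the second placebo-treated APPPS1ΔE9 mouse the median was 0.078, and without the choroid plexus-rich libraries, 6 mice in all, it was 0.070.

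**Figure D4:**
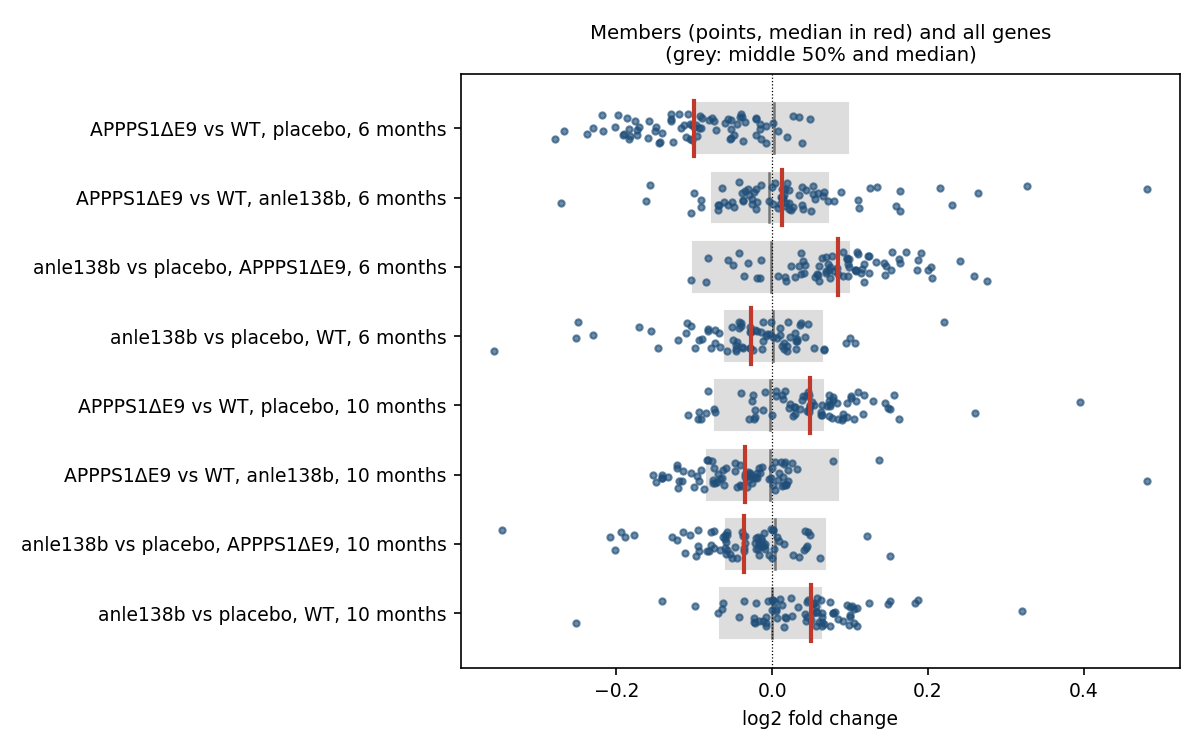
Log2 fold change (horizontal axis) of the 77 members (blue points, median as a red line) in each of 8 pairwise comparisons (rows), with the middle 50% and the median of all genes tested in grey. The member medians run from -0.10 in placebo-treated APPPS1ΔE9 against wild-type mice at 6 months to 0.08 for anle138b against placebo in APPPS1ΔE9 mice at 6 months.

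At 10 months the anle138b comparisons gave small values. In APPPS1ΔE9 mice no member was called (edgeR, against 0% of all genes, and DESeq2 called 0), 5 were lower and 0 higher at an unadjusted p under 0.05 (against 0.643% and 0.842% of all genes; 0 to 6 lower when each mouse was left out), and the median was -0.04, with 60 members below 0 (against 48.3%). Mrpl21 (-0.20 ± 0.08 SE) and Mrps12 (-0.35 ± 0.14) were lowest in p, and Mrps30 (0.12 ± 0.06) and Mrpl50 (0.05 ± 0.04) had the smallest p among the members above 0. Mrps12 ranged from 15.4 to 24.8 CPM in 7 anle138b-treated and from 19 to 30.8 CPM in 5 placebo-treated mice, with wide overlap. In wild-type mice no member was called (edgeR, 0% of all genes, DESeq2 0), 1 was higher and 0 lower at an unadjusted p under 0.05 (against 0.612% and 0.636% of all genes), and the median was 0.05, with 58 members above and 19 below 0 (50.2% and 49.8% of all genes). That member, Mrpl27, gave 0.18 ± 0.07, followed by Mrps24 (0.19 ± 0.09), while Mrps18c (-0.14 ± 0.07) and Mrps34 (-0.25 ± 0.21) lay below 0.

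Between the genotypes on anle138b at 10 months no member was called (edgeR, against 0.723% of all genes, and DESeq2 called 0), and 3 were lower and 0 higher at an unadjusted p under 0.05, against 2.17% and 3.61% of all genes. The 3 became 7 with the Y-linked covariate and 1 to 8 when each mouse was left out. The median was -0.04 and 57 members lay below 0, against 51% of all genes. Mrps23, a small-subunit protein specific to mitochondria, ranged from 27.4 to 31.3 CPM (median 30.9) in 7 APPPS1ΔE9 mice and was 34.8, 32.1, 31.1, 34.2 and 32.8 CPM in wild-type mice, a log2 fold change of -0.15 ± 0.05 (SE, adjusted p = 0.587). A single wild-type mouse lay within the transgenic range. Mrps5 gave -0.14 ± 0.05, and Mrps18c (0.14 ± 0.08) and Mrpl24 (0.08 ± 0.05) had the smallest p among the members above 0. The test of whether anle138b acted differently in the genotypes at 10 months called no member (edgeR, 0% of all genes, DESeq2 0). At an unadjusted p under 0.05, 2 differences were negative and 0 positive (1.15% of all genes in each direction). Leaving out each mouse gave 1 to 8 negative ones. The median was -0.08, against 0.00 for all genes, and 62 of 77 members lay below 0, against 49.3% of all genes.

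Over all 38 mice, with the 4 pairs of groups that differ only in genotype weighted equally, Mrpl3 (chr9:105053239-105079888, plus strand) was the 1 member called, lower in APPPS1ΔE9 mice, against 1.46% of all genes called and 0.203% called lower. In 6-month mice on placebo it was 76.2, 73.0, 71.6 and 78.8 CPM in wild-type and 69.3, 67.7, 71.8 and 74.3 CPM in APPPS1ΔE9 mice. At 10 months its medians were 70.6 CPM in 5 wild-type and 68.1 CPM in 5 APPPS1ΔE9 mice on placebo, and 75.8 CPM in 5 wild-type and 66.5 CPM in 7 APPPS1ΔE9 mice on anle138b. Every wild-type group had a higher median than the transgenic group of its age and diet, and groups overlapped in all pairs except 6-month mice on anle138b. The log2 fold change was -0.10 ± 0.02 (SE, adjusted p = 0.0348), a level 6.53% lower.

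**Figure D5:**
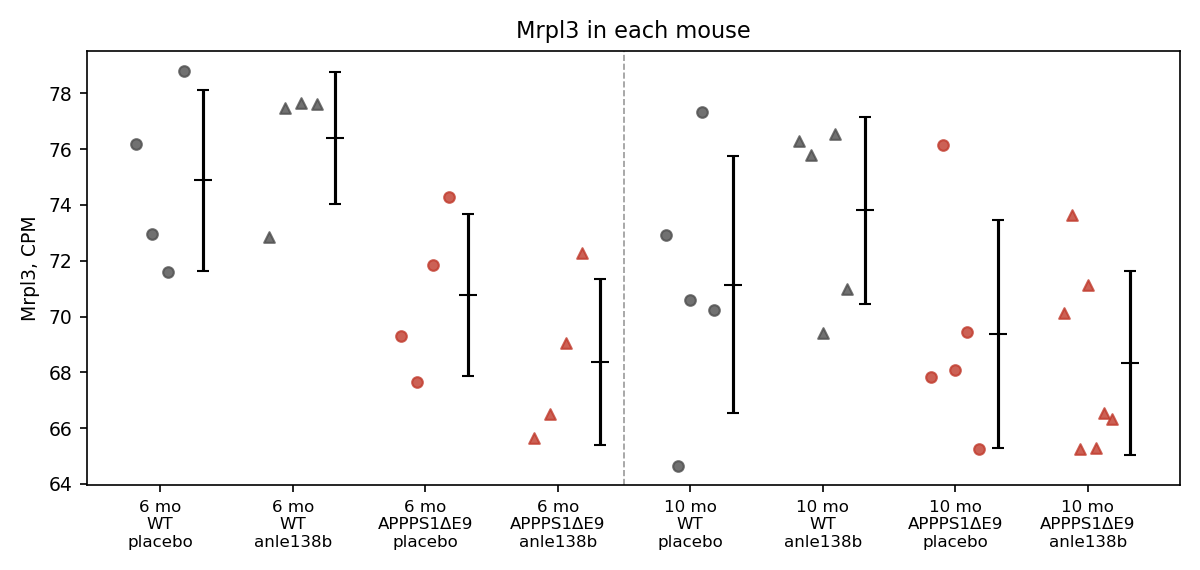
Mrpl3 in CPM (vertical axis, not starting at 0) in each of the 38 mice by group (circles placebo, triangles anle138b, grey wild-type, red APPPS1ΔE9; bars are mean ± SD). Wild-type mice span 64.7 to 78.8 CPM and APPPS1ΔE9 mice 65.3 to 76.2 CPM, and the genotypes are apart in 6-month mice on anle138b.

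The call for Mrpl3 depended on the fit. Its adjusted p was 0.216 with the Y-linked indicator, 0.162 with length and GC offsets and 0.133 without the low-count filter. It was 1 with lane as a factor and 0.00630 with DESeq2. The log2 fold change stayed between -0.11 and -0.087 in these fits. Lane was nearly inseparable from group, and only lane 5 held mice of both genotypes, so the fit with lane can say little about genotype. Among the 166 tested genes within 5 Mb of Mrpl3 on chromosome 9, 4 (2.41%) were called, all lower in APPPS1ΔE9 mice. Of all genes 1.46% were called and 0.203% called lower. Of the 77 members, 51 had a called gene within that distance, with a median of 1.45% of genes called near a member. No member other than Mrpl3 had more than 1 gene called lower within it. The other members had a median of genotype differences near 0 in this comparison, -0.02 over all 77, with 53 members below 0 (52.6% of all genes) and 7 lower and 0 higher at an unadjusted p under 0.05, against 4.09% and 4.82% of all genes. The 7 became 1 with lane as a factor, 3 with the Y-linked covariate and 2 without the first 10-month wild-type mouse on anle138b.

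For anle138b against placebo over all 38 mice no member was called (edgeR, against 0% of all genes, and DESeq2 called 0), and 1 member was higher and 2 lower at an unadjusted p under 0.05, against 2.27% and 2.54% of all genes. The median was 0.02 and 52 members lay above 0, against 49.2% of all genes. This comparison and those of genotype and age use the same 38 mice, so their values are not independent.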

How the data were processed

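Hippocampal RNA had been isolated with TRIZOL from whole tissue, and TruSeq mRNA libraries were sequenced. Per the labels and the study's methods, the authors aligned reads to mm10 with STAR and counted them per gene with HTSeq, and the deposited files hold whole-number counts per Ensembl gene. The annotation release and strandedness are not given in the sources used here, and without strand, reads of overlapping genes on opposite strands cannot be told apart. Symbols, positions, exon length and GC content came from GENCODE for GRCm38, which matched 48349 of 48709 genes. Every row of the files names an Ensembl gene.

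Genes were kept by filterByExpr (minimum count 10, minimum total count 15), scaled by TMM and tested with edgeR 4.0.16 (glmQLFit, robust, and glmQLFTest) in R 4.3.3, with p-values adjusted by Benjamini-Hochberg over all genes tested and a threshold of 0.1. Pairwise comparisons used the 2 groups compared, interactions 4 groups, and contrasts over all mice 8 group means. Standard errors were derived from each log2 fold change and its F statistic. CPM used TMM library sizes, except for App, the choroid plexus markers and the Y-linked covariate, which used total counts without TMM. Log2 CPM used a prior count of 2. Alternatives were RLE size factors, no low-count filter, a Y-linked covariate (over 20 CPM), length and GC offsets, a replicate block, DESeq2 1.42.0, lane as a factor, all 4 groups of a cohort in 1 fit, a threshold of 0.05 and each mouse left out. The choroid plexus alternatives (1000 CPM) were chosen after seeing the data. The script was tested on simulated counts.

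The named genes were the members called (at most 12 per comparison by adjusted p), the 2 with the smallest p in each direction of each pairwise comparison, the 3 highest and lowest per length, those filtered out, and members with known special roles. Others, such as Mrps6 and the members without overlap between groups, were named after their values were seen. The members and lists were chosen with earlier results of these data known. Mice of a group were compared in 75 pairs, and no pair matched within sampling noise (chi-square over its degrees of freedom 3.17 to 65.3). Counting error differs between members: median counts per library were 55.5 for Mrps34 and 63.5 for Mrps36, and 1730.5 for Mrpl3. Its share in the spread between mice was not tested.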

Additional observations from a re-analysis of the deposited data

Results flagged for a closer look

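Of 64 sets of values (named members in groups of 4 to 7 mice), 6 held 1 mouse far from the others of its group by Dixon's criterion, and chance gives this in about 5% of sets. In 6-month wild-type mice on placebo, the third mouse had 43.3 CPM of Mrpl20, against 48 to 48.8 CPM in the other 3. In 6-month wild-type mice on anle138b, the first mouse had 72.8 CPM of Mrpl3, against 77.5 to 77.6 CPM. In placebo-treated APPPS1ΔE9 mice at 6 months, the third mouse had 36.9 CPM of Mrpl38, against 39.6 to 40 CPM. At 10 months the fifth placebo-treated APPPS1ΔE9 mouse had 14.4 CPM of Mrps30, against 13.1 to 13.3 CPM, and the fourth had 34.6 CPM of Mrpl50, against 36 to 36.3 CPM. The fourth 10-month wild-type mouse on placebo had 1.24 CPM of Mrps34, against 2.53 to 2.92 CPM, a gene most of whose exon bases are shared with others.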

How the results depend on the processing

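The median log2 fold change of members kept its sign under every alternative run, apart from the 6-month genotype comparison on anle138b, where leaving out each mouse gave -0.0038 to 0.03. Of 94 medians with all mice kept, 1 moved by more than the spread between mice, the genotype comparison on placebo at 6 months, -0.035 with the Y-linked covariate. In that fit the contrast rests on 1 wild-type mouse. The counts of members at an unadjusted p under 0.05 were less stable: 19 of 94 counts of higher and 21 of 94 of lower members moved by more than 1.5 times or from 0 or to 0. The genotype by anle138b median at 6 months, 0.13, was 0.078 without the second placebo-treated APPPS1ΔE9 mouse and 0.070 without the choroid plexus-rich libraries, and the genotype by age median was 0.19 without the latter. For genotype over all 38 mice the number of members called was 0 without the low-count filter, with the Y-linked covariate, with length and GC offsets, with lane as a factor and without the choroid plexus-rich libraries, and 2 with DESeq2. Leaving out each mouse gave 1 to 2, the higher value without the second 10-month wild-type mouse on placebo. The 66 members called between the ages ranged from 56 to 67 over the alternatives, and from 65 to 68 with each mouse left out. Fits without the choroid plexus-rich libraries left some groups with 1 mouse, assumed to vary like the others. Replicate numbers paired no mice: in no comparison did every same-numbered pair correlate above 0.1, and mean correlations ran from -0.25 to 0.35. With a replicate block no call over members was lost, and between the ages 67 were called. At 10 months, members lower at an unadjusted p under 0.05 then numbered 13 in place of 3 for genotype on anle138b and 14 in place of 2 for genotype by anle138b. The cause of these shifts was not tested. The number of mice per group, 4 to 7, limits what pairwise comparisons can show for changes of this size.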
